A study of Arabidopsis thaliana with 8 samples.

Results

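The genes described here encode a part of the nuclear share of the photosynthetic apparatus of *Arabidopsis thaliana*. They are 46 loci of the light-harvesting families LHCA (6 genes) and LHCB (14 genes), the Rubisco small subunits (RBCS, 4 genes), photosystem I subunits (PSA, 12 genes) and photosystem II subunits (PSB, 10 genes). They were chosen by locus from their known function, as a group known to include some of the most strongly transcribed genes of seedlings. The level of each single gene was not checked. They make up 46 of the 27444 protein-coding genes annotated on chromosomes 1 to 5. R-loops were mapped at these genes by DRIP-seq, in which the S9.6 antibody pulls down DNA:RNA hybrids from sonicated nucleic acid of formaldehyde-fixed plants. The 8 libraries came from 10-day-old seedlings of wild-type Col-0 and of *ndx1-4*, a T-DNA insertion mutant of NODULIN HOMEOBOX (*NDX*). Each genotype had 1 input library without antibody, 2 untreated S9.6 immunoprecipitation (IP) libraries, and 1 S9.6 library treated with RNaseH1, an enzyme that digests the RNA of a hybrid. The labels name seedlings as the tissue, so each value is a mixture over the cell types of the plant. The authors deposited 1 peak list per genotype, with 14180 nuclear peaks for Col-0 and 13549 for *ndx1-4*. A list carries no replicate error, and library depth is unknown, so the lists are described side by side without a test between genotypes, and genotype and depth cannot be told apart. Transcript levels were not analysed here.

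An R-loop forms when RNA pairs with one strand of the DNA and leaves the other strand single, often behind the transcribing polymerase near gene starts and ends. The chlorophyll-binding LHCA and LHCB proteins form the antennae of photosystem I and photosystem II, which collect light and pass its energy to the reaction centres. Photosystem II splits water, photosystem I reduces ferredoxin, and Rubisco fixes carbon dioxide in the chloroplast stroma. The core subunits of both photosystems and the Rubisco large subunit are made in the chloroplast, whereas the genes described here are transcribed in the nucleus in response to light.

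Of the 46 genes, 9 had a Col-0 peak within the gene body or the 500 bases on either side of it (19.6%), and the same 9 genes had an *ndx1-4* peak. Over all protein-coding genes the share was 37.6% for the Col-0 list, 36.0% for the *ndx1-4* list and 34.0% for both lists at once. The 9 genes were *LHCA1* (AT3G54890), *LHCA2* (AT3G61470), *LHCA5* (AT1G45474), *LHCB3* (AT5G54270), *LHCB4.3* (AT2G40100), *RBCS1B* (AT5G38430), *PSAG* (AT1G55670), *PSAH2* (AT1G52230) and *PSAN* (AT5G64040). No peak of either list reached the coding region of any of the 46 genes, counted from the first to the last coding base with introns included, whereas 21.5% of all protein-coding genes had a Col-0 peak there and 20.3% an *ndx1-4* peak.

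For the 5 genes where at least 100 shared peak bases lay between genes, that stretch was read from the RefSeq TAIR10.1 genome, 5′ to 3′ in the direction of the photosynthesis gene, to show what sequence was called beside these genes. The capitals mark the longest unbroken run of purines or of pyrimidines, because such strand asymmetry is a known feature of many R-loop sites. Any sequence has a longest run, so the mark alone does not set a stretch apart. *LHCA1*, on the minus strand, had its stretch at chr3:20339001-20339240, 264 bases past the end of the gene, with a pyrimidine run of 20 bases. For *LHCA2*, on the plus strand, the first 300 bases past the gene end are given, chr3:22747445-22747744. *LHCB3*, on the plus strand, had 112 bases directly upstream of its start, chr5:22038053-22038164. *LHCB4.3*, on the plus strand, had 170 bases at chr2:16747661-16747830, 237 bases past its end. *PSAG*, on the minus strand, had the 149 bases directly past its end, chr1:20802521-20802669.
LHCA1: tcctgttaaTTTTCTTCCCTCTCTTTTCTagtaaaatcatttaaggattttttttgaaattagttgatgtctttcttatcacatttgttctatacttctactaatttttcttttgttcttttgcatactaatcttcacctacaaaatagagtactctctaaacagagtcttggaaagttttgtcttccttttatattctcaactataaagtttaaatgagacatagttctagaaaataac
LHCA2: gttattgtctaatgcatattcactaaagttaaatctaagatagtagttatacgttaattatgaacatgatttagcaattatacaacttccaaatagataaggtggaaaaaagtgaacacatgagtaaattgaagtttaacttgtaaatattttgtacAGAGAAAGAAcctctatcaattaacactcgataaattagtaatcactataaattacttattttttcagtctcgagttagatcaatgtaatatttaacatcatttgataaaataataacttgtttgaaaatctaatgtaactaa
LHCB3: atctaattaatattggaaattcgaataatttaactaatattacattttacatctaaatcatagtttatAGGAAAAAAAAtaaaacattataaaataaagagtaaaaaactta
LHCB4.3: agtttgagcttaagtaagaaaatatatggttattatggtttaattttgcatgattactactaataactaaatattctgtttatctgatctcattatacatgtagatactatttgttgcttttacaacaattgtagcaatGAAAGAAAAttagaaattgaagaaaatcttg
PSAG: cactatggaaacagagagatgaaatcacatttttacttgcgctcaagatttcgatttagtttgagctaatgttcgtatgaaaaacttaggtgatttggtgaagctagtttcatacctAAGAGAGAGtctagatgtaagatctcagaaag
At *PSAN* the shared stretch between genes was 31 bases long and is not shown, and at *LHCA5*, *RBCS1B* and *PSAH2* no peak base lay between genes. The marked run was 20 bases at *LHCA1*, 10 at *LHCA2*, 11 at *LHCB3*, 9 at *LHCB4.3* and 9 at *PSAG*. In the central 200 bases of all peaks at protein-coding genes, the longest run had a median of 14 bases in both lists. The stretches were not matched to that length. The 5 stretches shown were rich in A and T. Their GC content was 27.1% at *LHCA1*, 24.3% at *LHCA2*, 15.2% at *LHCB3*, 24.1% at *LHCB4.3* and 35.6% at *PSAG*.

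**Figure D1:**
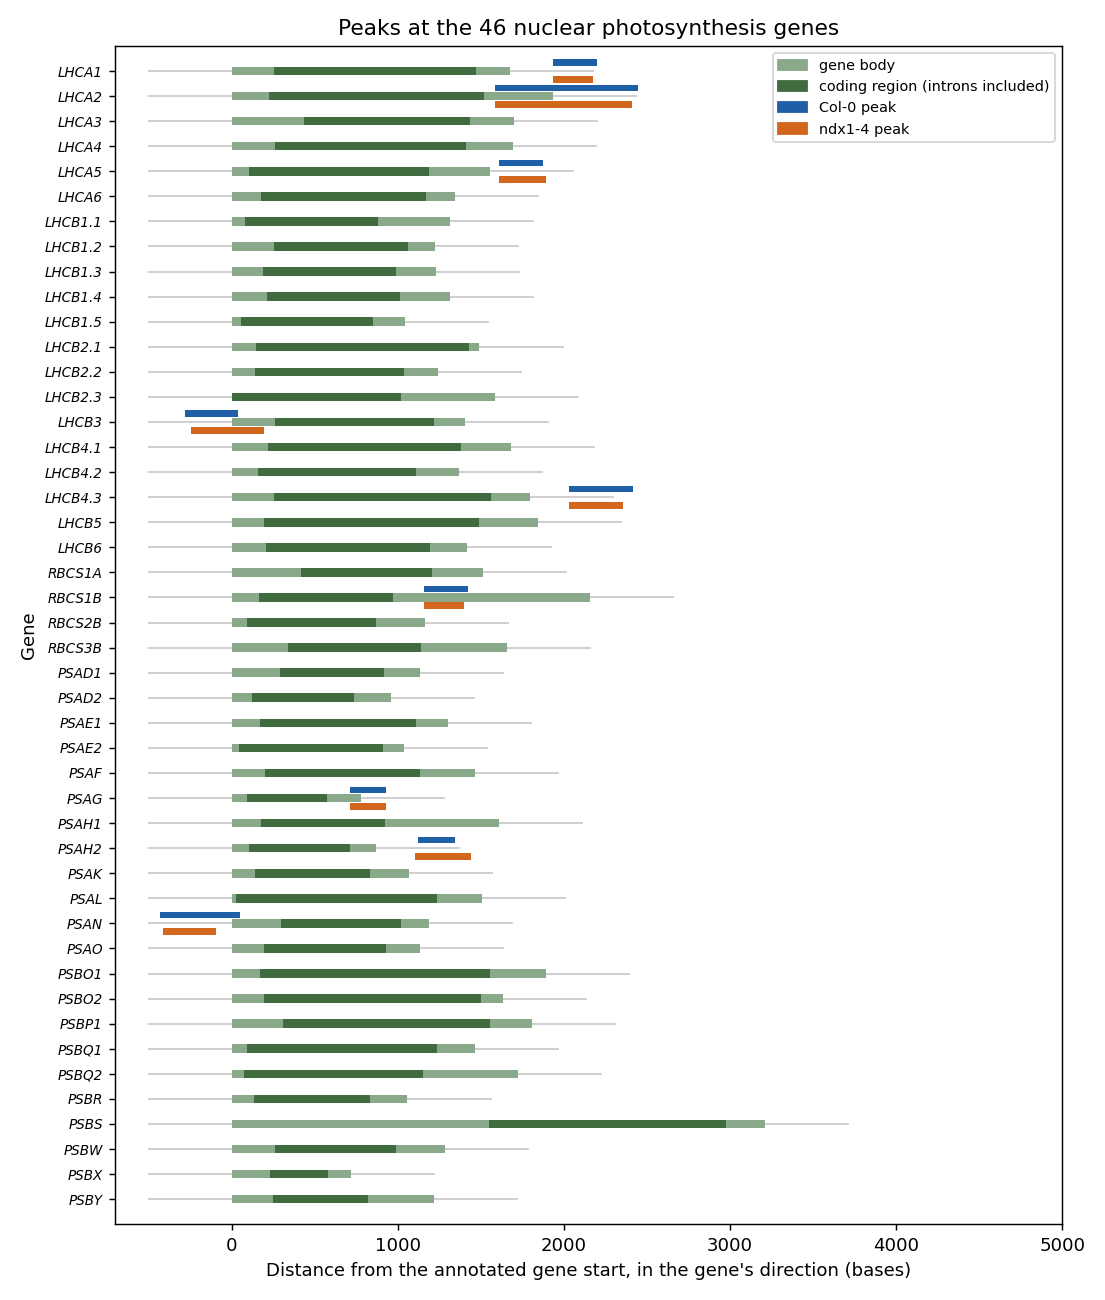
Map of the 46 genes, aligned at the annotated start and drawn in the direction of transcription; the horizontal axis is the distance from the start in bases, grey lines are the 500-base flanks, and bars above and below each gene are Col-0 and *ndx1-4* peaks. Peaks stand at 9 genes in both lists, none over a coding region, and 6 of the 9 are centred past the gene end.

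The LHCA genes, which encode the antenna of photosystem I, had the highest share of the 5 families, with a peak at 3 of 6 genes in both lists, although only *LHCA2* carried one on its gene body. *LHCA2* had the longest and highest-scoring peak among the 46 genes. It ran for 860 bases in Col-0 (chr3:22747101-22747960, score 160) and 820 bases in *ndx1-4* (chr3:22747101-22747920, score 148). The score is a whole number with an unstated scale, so it was ranked within its own list only, and both peaks stood near the 88th percentile (88.3 and 88.1). Of their bases, 344 lay in the annotated 3′ UTR of *LHCA2* and the other 516 and 476 between genes. Repeated sequence made up part of this locus, since 29.9% of the 31-base words of the Col-0 peak occurred more than once in the genome, against 0% for each of the other 8 Col-0 peaks. How reads with several matches were placed is not given in the sources used here, and its part in the *LHCA2* peak was not tested.

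At *LHCA1*, the peak was 260 bases long in Col-0 (chr3:20338981-20339240, score 86, percentile 36.2) and 240 bases in *ndx1-4* (score 76, percentile 23.2), and it touched no annotated gene. *LHCA5*, a minor antenna protein linked to the association of photosystem I with the NDH complex, had a peak 55 bases past its end. That peak measured 260 bases in Col-0 (chr1:17180861-17181120, score 83) and 280 bases in *ndx1-4* (chr1:17180861-17181140, score 82). All of its bases lay in coding sequence of the convergent gene *AT1G45545*, annotated as a WEAK CHLOROPLAST MOVEMENT UNDER BLUE LIGHT-like protein. The lists give no strand, so whether such a peak belongs to the photosynthesis gene or to its neighbour cannot be told apart. *LHCA3*, *LHCA4* and *LHCA6* had no peak in the window, and their nearest Col-0 peaks lay 8209, 1128 and 18610 bases away.

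The LHCB genes encode the antenna of photosystem II, with LHCB1, LHCB2 and LHCB3 in the major trimeric complex and LHCB4, LHCB5 and LHCB6 as minor monomeric antennae. Of these 14 genes, 2 had a peak in each list, *LHCB3* and *LHCB4.3*. The peak at *LHCB3* crossed the gene start and was the one member peak that extended further into its gene in the mutant list. It covered 320 bases in Col-0 (chr5:22037881-22038200, score 83, percentile 31.7), of which 36 were in the 5′ UTR of *LHCB3*. In *ndx1-4* it covered 440 bases (chr5:22037921-22038360, score 67, percentile 8.97), of which 196 were in that UTR. Both also reached the 3′ UTR of the upstream gene *MRE11*, a DNA repair gene on the same strand, over 172 bases in Col-0 and 132 bases in *ndx1-4*. The *LHCB3* peak was thus longer in *ndx1-4*, while its rank within the list was lower.

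*LHCB4.3*, a variant of the minor antenna protein CP29, had a peak that began 237 bases past its end. It was 380 bases long in Col-0 (chr2:16747661-16748040, score 78) and 320 bases in *ndx1-4* (chr2:16747661-16747980, score 76). The 170 bases nearest to *LHCB4.3* lay between genes in both lists. The other 210 bases in Col-0 and 150 in *ndx1-4* lay in the 5′ UTR of *AT2G40110*, a Yippee family gene on the same strand. None of the 5 LHCB1 genes and none of the 3 LHCB2 genes, which encode the bulk of the trimeric antenna, had a peak in the window. The nearest Col-0 peak was between 2063 bases (*LHCB1.4*) and 12247 bases (*LHCB1.3*) from the LHCB1 genes, and 2609 bases from *LHCB2.2*. For *LHCB2.3* the distance was 1726 bases in Col-0 and 6132 bases in *ndx1-4*, and the gene had no peak of its own in either list. *LHCB1.1*, *LHCB1.2* and *LHCB1.5* fell within that range at 9196, 6820 and 4413 bases. *LHCB1.1*, *LHCB1.2* and *LHCB1.3* lie close together on chromosome 1, and *LHCB1.4* and *LHCB1.5* on chromosome 2. Their distances are therefore not independent of each other. *LHCB2.1* stood furthest from any peak of all 46 genes, at 19530 bases in Col-0 and 19510 bases in *ndx1-4*. The other minor antenna genes, *LHCB4.1*, *LHCB4.2*, *LHCB5* and *LHCB6*, had no peak in the window either, with Col-0 distances of 9733, 1077, 3612 and 1142 bases. Between 23.5% (*LHCB1.4*) and 36.2% (*LHCB2.2*) of the 31-base words of the LHCB1 genes, *LHCB2.1* and *LHCB2.2* occurred more than once in the genome, and the part of such repeats in these counts was not tested.

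The 4 RBCS genes encode the small subunit of Rubisco, and *RBCS1B*, *RBCS2B* and *RBCS3B* lie side by side on chromosome 5. Only *RBCS1B* had a peak. It was 260 bases long in Col-0 (chr5:15383901-15384160, score 77, percentile 22.3) and 240 bases in *ndx1-4* (chr5:15383921-15384160, score 71, percentile 15). Both peaks lay wholly in the annotated 3′ UTR of *RBCS1B*, which is long in this annotation, and the centre of the Col-0 peak was 1289 bases from the start of a gene of 2154 bases. In both lists the nearest peak was 1458 bases from *RBCS1A* and 1108 bases from *RBCS3B*. For *RBCS2B* that distance was 1830 bases in the Col-0 list, and 1850 in the other.

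Among the 12 photosystem I subunit genes, 3 had a peak in both lists. The genes for the ferredoxin-binding face, *PSAD1*, *PSAD2*, *PSAE1* and *PSAE2*, had none, with the nearest Col-0 peak 7697, 1159, 3080 and 2354 bases away. *PSAG*, a peripheral membrane subunit beside the antenna, had a peak of 220 bases at the same position in both lists (chr1:20802521-20802740). Its scores were 75 and 74, at percentiles 19.1 and 19.9, and 71 of its bases lay in the 3′ UTR of *PSAG* with the other 149 between genes. *PSAH2*, part of the docking site for the mobile antenna, had a peak 253 bases past its end in Col-0 and 233 bases past it in *ndx1-4*. This peak grew from 220 bases in Col-0 (chr1:19455921-19456140, score 92, percentile 44.6) to 340 bases in *ndx1-4* (chr1:19455901-19456240, score 96, percentile 53.1). It lay within the neighbour *ROPGEF11*, a Rop guanine nucleotide exchange factor gene on the opposite strand, over 220 coding bases in Col-0 and over 255 coding and 85 intron bases in *ndx1-4*.

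*PSAN*, a lumenal subunit at the plastocyanin-binding side, had the lowest-ranked peak of the 9. It measured 480 bases in Col-0 (chr5:25629661-25630140, score 68, percentile 9.11) and 320 bases in *ndx1-4* (chr5:25629801-25630120, score 61, percentile 2.69). In Col-0 its edge covered 48 bases of the 5′ UTR of *PSAN*, while in *ndx1-4* it stopped 93 bases short of the gene. Most of it, 309 bases in Col-0 and 289 in *ndx1-4*, lay in the 3′ UTR of the upstream glutamate tRNA synthetase gene *ERS* on the same strand. This edge shift is the reason that 5 genes had a Col-0 peak on the gene body and 4 an *ndx1-4* peak. The remaining photosystem I genes without a peak were *PSAF*, *PSAH1*, *PSAK*, *PSAL* and *PSAO*, whose nearest Col-0 peaks lay 1876, 1767, 4494, 2020 and 8103 bases away.

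The 10 photosystem II subunit genes had no peak in either list. They include the oxygen-evolving complex proteins (*PSBO1*, *PSBO2*, *PSBP1*, *PSBQ1*, *PSBQ2*, *PSBR*), the small membrane subunits (*PSBW*, *PSBX*, *PSBY*) and *PSBS*, which triggers the dissipation of excess light energy. *PSBS* was the gene just outside the window, with its nearest peak 734 bases away in Col-0 and 814 bases in *ndx1-4*. Just inside it, *LHCA1* had the peak furthest from its gene body, at 264 bases. At *PSBO1*, the main stabiliser of the manganese cluster, the distance to the nearest peak was 4112 bases for Col-0 and 9492 for *ndx1-4*. *PSBQ1* differed the other way, with 13966 bases in Col-0 and 10266 bases in *ndx1-4*. These distances concern peaks outside the windows, and no photosystem II gene had a peak in one list only.

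Part by part, the shares at the photosynthesis genes were below those of all protein-coding genes everywhere except past the gene end. There they were only slightly higher. On the gene body, 5 genes had a Col-0 peak (10.9%) and 4 an *ndx1-4* peak (8.7%), against 29.6% and 28.2% of all protein-coding genes. In the 500 bases upstream of the start, peaks of both lists stood at 2 genes (4.35%), against 14.7% and 13.9%. In the first 500 bases of the gene, 2 genes had a Col-0 peak (4.35%) and 1 an *ndx1-4* peak (2.17%), against 18.4% and 17.4%. In the last 500 bases, peaks of both lists again stood at 2 genes (4.35%), against 9.58% and 8.83%. In the 500 bases downstream of the end, the number was 6 in each list (13.0%), against 10.4% and 9.85%. Those 6 genes were *LHCA1*, *LHCA2*, *LHCA5*, *LHCB4.3*, *PSAG* and *PSAH2*. With 46 genes in all, the downstream difference rests on few genes. The *LHCA5* and *PSAH2* peaks lay wholly within a neighbouring gene, as did 210 of the 380 bases of the Col-0 peak at *LHCB4.3*. None of these genes kept a peak when each peak was counted only for the gene body nearest to its centre.

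**Figure D2:**
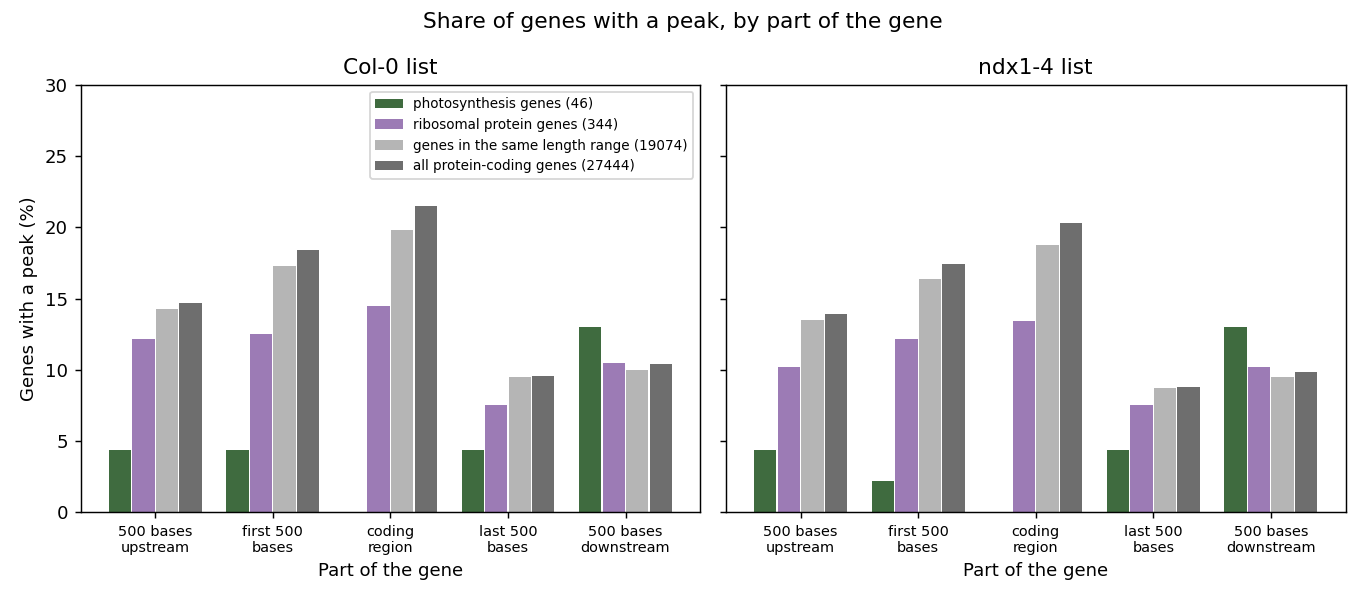
Percent of genes with a peak (vertical axis) in 5 parts of the gene, for the Col-0 list and the *ndx1-4* list. Of the 4 sets drawn (photosynthesis genes, ribosomal protein genes, genes in the same length range and all protein-coding genes), the 46 photosynthesis genes are the lowest in Col-0 in the upstream (4.35%), first-500-base (4.35%), coding (0%) and last-500-base (4.35%) parts, and the highest in the downstream part (13.0%).

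Peak coverage around the gene start showed the same contrast base by base. Over all protein-coding genes, 11.9% of the positions between 100 and 199 bases past the start lay under a Col-0 peak and 11.3% under an *ndx1-4* peak. At the photosynthesis genes these shares were 0% and 2.09%, and the *ndx1-4* value came from *LHCB3* alone. From 200 to 699 bases past the start no position was under a peak in either list. Between 300 and 399 bases past the gene end, by contrast, 9.02% of positions in Col-0 and 9.46% in *ndx1-4* were under a peak, against 4.81% and 4.56% for all genes. Over whole gene bodies, Col-0 peaks covered 759 of 66375 bases (1.14%) and *ndx1-4* peaks 851 (1.28%), against 5.07% and 4.65% over all protein-coding genes.

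**Figure D3:**
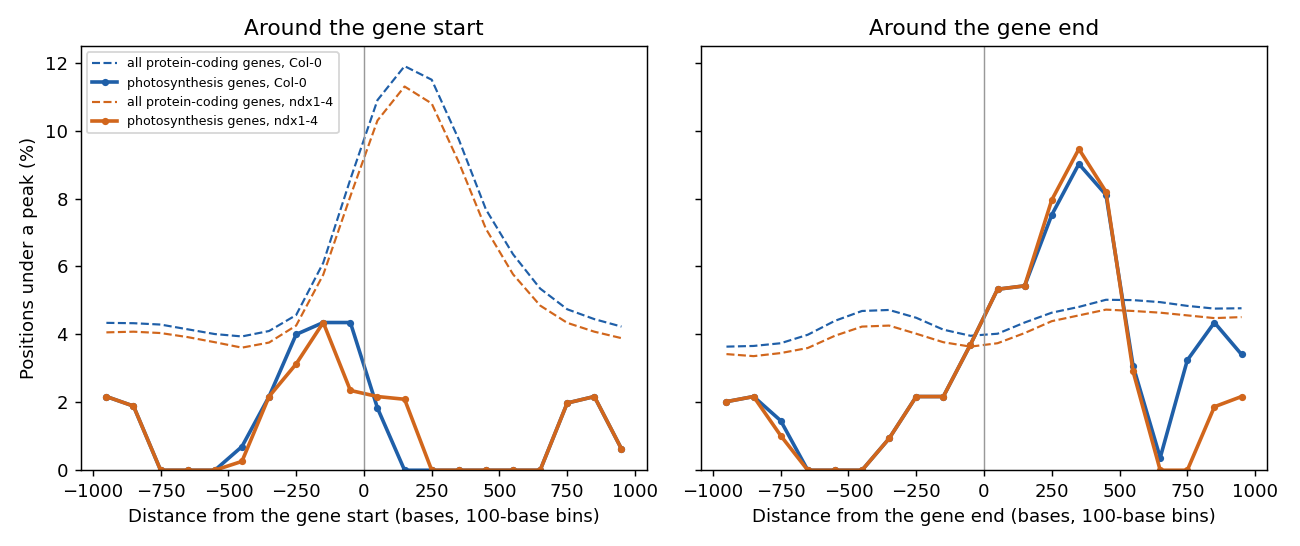
Percent of positions under a peak (vertical axis) in 100-base bins within 1000 bases of the gene start and the gene end, for the 46 photosynthesis genes (solid lines) and all protein-coding genes (dashed lines). The dashed lines peak at 11.9% and 11.3% just past the start, where the solid lines lie at 0% and 2.09%.

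The difference in counts was also present against genes in the same length range, which is not a match of lengths gene by gene. The photosynthesis genes were short, with a median body of 1411 bases against 2078 bases for all protein-coding genes, and a longer gene offers more bases for a peak to touch. The 19074 genes within their length range of 720 to 3207 bases were still longer, with a median body of 1888 bases. Of these, 35.3% had a Col-0 peak in the window and 33.7% an *ndx1-4* peak, and 27.0% and 25.8% had one on the body. Within bins of length, 2 of 19 photosynthesis genes of 1200 to 1599 bases had a Col-0 peak, against 31.8% of all genes in that bin. For 800 to 1199 bases the count was 2 of 10 against 25.7%, and for 1600 to 1999 bases it was 3 of 13 against 33.4%. The counts in the *ndx1-4* list were the same in these 3 bins, against 30.4%, 24.3% and 32.1%. In both lists the gap was widest for 1200 to 1599 bases, and smaller for 800 to 1199 and for 1600 to 1999 bases. The other 4 genes went both ways in each list, with a peak at 1 of 2 genes under 800 bases (against 21.7% in Col-0), at the 1 gene of 2000 to 2999 bases (against 40.4%) and at 0 of 1 gene of 3000 to 4999 bases (against 50.4%).

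Repeated sequence in the gene body was more common among these genes than among all protein-coding genes. Reads from such sequence are harder to place. In 12 of the 46 genes (26.1%), more than 5% of the 31-base words occurred elsewhere in the genome, against 11.4% of the 27436 protein-coding genes long enough to be scored. These 12 were *LHCA2*, the 5 LHCB1 genes, *LHCB2.1*, *LHCB2.2*, *RBCS1B*, *RBCS2B*, *RBCS3B* and *PSBS*, of which 2 (*LHCA2* and *RBCS1B*) had a peak in each list (16.7%), against 31% of all such genes in Col-0 and 29.4% in *ndx1-4*. Among the other 34 genes, 7 carried a peak, the same number for each genotype (20.6%), against 38.5% and 36.8%. In both groups the share at photosynthesis genes was below that of all genes, the first group resting on 12 genes. Repeats were scored here over the gene body, while every peak except that of *RBCS1B* lay partly or wholly outside it. The part of repeats in the counts was not tested.

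The distance to the nearest peak gives a value for every gene, whether or not a window holds a peak. Its median over the 46 genes was 2202 bases for Col-0 and 2349 for *ndx1-4*, against 1479 and 1660 bases for all protein-coding genes and 1656 and 1849 bases for those in the same length range. Of the 46 genes, 26 (56.5%) lay more than 2000 bases from a Col-0 peak and 28 (60.9%) from an *ndx1-4* peak, against 44.6% and 46.6% of all genes. For the 37 genes without a peak in the window, the lowest distance was 734 bases, the median 2798 and the highest 19530 in Col-0, and 814, 3080 and 19510 in *ndx1-4*. Genes without a peak in the whole annotation had larger medians, 3505 and 3665 bases. By these medians, the photosynthesis genes without a peak were nearer to one than other genes without a peak.

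**Figure D4:**
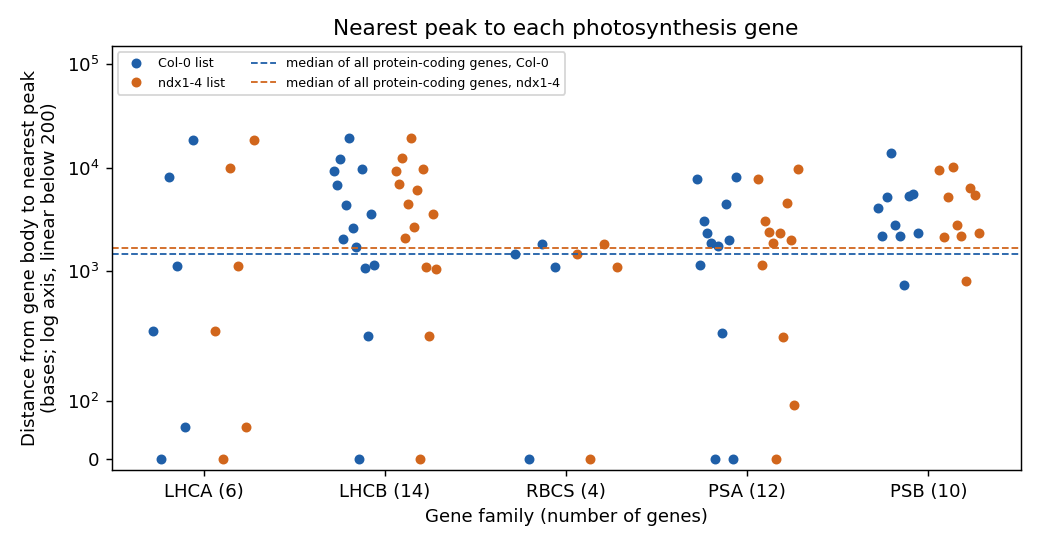
Distance in bases from each gene body to the nearest peak (vertical axis, logarithmic above 200 bases and linear below) by gene family, with 1 point per gene and list and dashed lines at the medians of all protein-coding genes (1479 bases in Col-0 and 1660 in *ndx1-4*). PSB genes have no point below 734 bases, and *LHCB2.1* is the highest at 19530 bases.

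The 9 peaks were low in rank beside other peaks at genes, and shorter by their median, mainly in Col-0. Their median length was 260 bases for Col-0 and 320 for *ndx1-4*, against 340 bases in both lists over the distinct peaks at all protein-coding genes. Their median score percentile was 31.7 and 23.2, against 49.8 and 49.5. In Col-0 only the *LHCA2* peak was among the higher-scoring 50% of its list, and in *ndx1-4* the *PSAH2* peak joined it. Of the 9 Col-0 peaks, 6 were centred past the gene end (66.7%), 1 inside the body and 2 upstream, whereas over all gene and peak pairs 18.2% were centred past the end, 64.7% inside and 17.1% upstream. The median centre lay 1289 bases from the start in Col-0 and 1279 for *ndx1-4*, against 642 and 625 bases for all pairs.

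Each of the 9 peaks had exactly 1 partner in the other list, so the comparison between Col-0 and *ndx1-4* at these genes is one of peak edges. The Col-0 peak was the longer one at 5 genes (*LHCA1*, *LHCA2*, *LHCB4.3*, *RBCS1B* and *PSAN*), the *ndx1-4* peak at 3 (*LHCA5*, *LHCB3* and *PSAH2*), and *PSAG* was equal. Of 8952 such pairs at all protein-coding genes, the Col-0 peak was longer in 43.1%, the *ndx1-4* peak in 28% and neither in 28.9%. The largest differences were 160 bases at *PSAN* and 120 bases at *LHCB3* and *PSAH2*, and the other 6 were at most 60 bases. With a single list per genotype these differences have no replicate error to be set against.

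**Figure D5:**
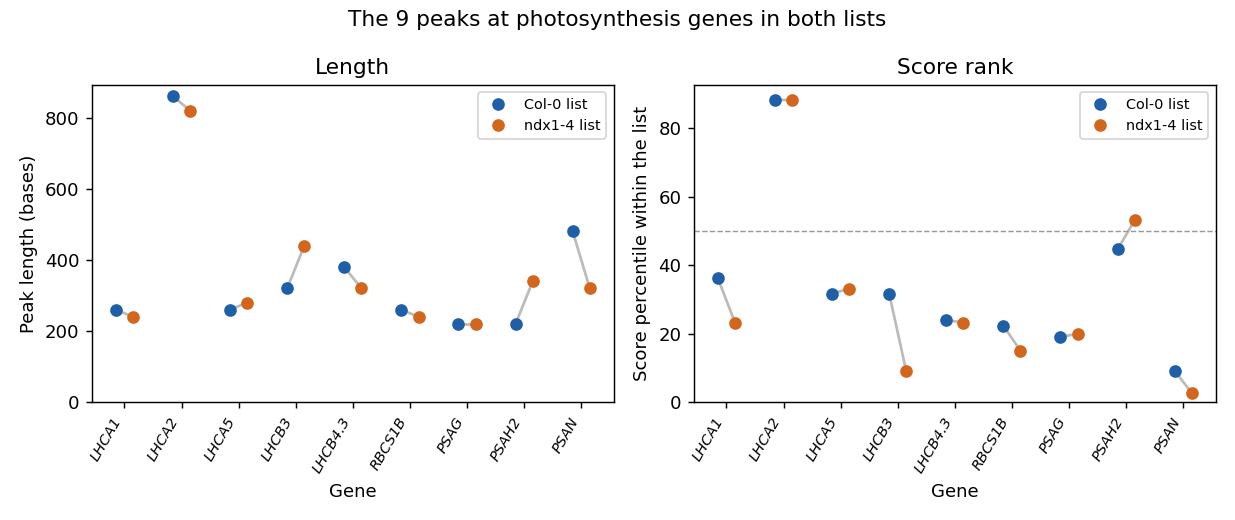
Length in bases (left) and score percentile within its own list (right) of the 9 peaks, with 1 point for Col-0 and 1 for *ndx1-4* per gene joined by a line; the dashed line marks the 50th percentile. *LHCA2* stands apart at 860 and 820 bases and percentiles 88.3 and 88.1, and 7 of the 9 genes are under the dashed line in both lists.

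The sequence of the genes differed from that of genes with a peak near the start, on features that took no part in choosing them. In the first 500 bases, the median GC content was 45% for the 46 genes, 39.6% for all protein-coding genes and 36.8% for the 5050 genes with a Col-0 peak there. *LHCB1.5* was highest at 55.6% and *PSBS* lowest at 25.6%. The longest run of purines or pyrimidines in these 500 bases had a median of 13 bases for the 46 genes, 14 for all genes and 18 for the genes with a peak there. Purines on the coding strand made up 48.6%, 47.2% and 44.6% of these bases. The median number of exons was 3 for the 46 genes and 4 for all genes.

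The 9 peaks themselves were richer in A and T than other peaks at genes. In their central 200 bases the median GC content was 28.5% in Col-0 and 29% in *ndx1-4*, against 36% in both lists over all peaks at protein-coding genes. The longest purine or pyrimidine run in those bases had a median of 11 bases for Col-0 and 10 for *ndx1-4*, against 14. Purine asymmetry, the excess of purines over pyrimidines or the reverse in percent of the bases, had a median of 15% and 22%, against 22% in both lists. Most of the 9 lay in UTRs or between genes and most other peaks inside genes, which differ in base composition, and this part of the difference was not tested.

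Other nuclear photosynthesis genes were taken from a list of 32 that serve electron transport, ATP synthesis and the Calvin cycle. In the window 12 had a Col-0 peak (37.5%) and 11 an *ndx1-4* peak (34.4%), close to the 37.6% and 36.0% of all protein-coding genes. In the first 500 bases 8 had one in each list (25%), and 7 of these genes were the same in both lists. Of 11 electron transport genes, 7 had a Col-0 peak and 6 an *ndx1-4* peak, at *PETC* (the Rieske iron-sulphur protein), *FD1* (ferredoxin), *LFNR2* (ferredoxin-NADP reductase), *PETM*, *PGRL1A*, *PGRL1B* and, in Col-0 only, *LFNR1*. *LFNR1* was the 1 gene of the 32 whose window held a peak in a single list, 440 bases long with a score of 191 (percentile 93.8). Over all protein-coding genes, 997 of the 10328 with a Col-0 peak in the window had none in *ndx1-4*. In the other direction the count was 537 of 9868. At *PGRL1A*, beside its shared peak, a further peak stood in the *ndx1-4* list only. It was 240 bases long with a score of 87 and was centred 106 bases upstream of the gene start. Of 3 ATP synthase genes, *ATPD* and *ATPG* had a peak in both lists. Of 18 Calvin cycle genes, 3 had a peak in both lists (16.7%, below the 19.6% of the 46 genes, so that the higher share of the 32 came from the electron transport and ATP synthase genes), *PRK* (phosphoribulokinase), *GAPA1* and *GAPA2* (glyceraldehyde-3-phosphate dehydrogenase), each in the first 500 bases. *GAPA1* had a peak of 500 bases centred 308 bases past its start in both lists, a position at which none of the 46 genes had one. The difference between the 2 sets of genes was not tested, and the list of 32 genes was not chosen for expression level.

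Ribosomal protein genes, taken by product name and another group known to include strongly transcribed genes, stood between the photosynthesis genes and the rest. Of 344 such genes, 104 had a Col-0 peak in the window (30.2%) and 98 an *ndx1-4* peak (28.5%), and 70 (20.3%) and 67 (19.5%) had one on the gene body. Their median body was 1565 bases, and the window shares of all protein-coding genes of 1200 to 1599 bases were close, at 31.8% and 30.4%. The part of gene length in this order was not tested. In the coding region 50 had a Col-0 peak (14.5%), where the photosynthesis genes had 0 of 46.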

How the data were processed

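DRIP-seq peaks were analysed for 8 libraries of Col-0 and *ndx1-4* seedlings, grouped by sample title. Per the labels, the submitters' processing notes name Bowtie2, SAMtools, Picard, deepTools and MACS2 with the TAIR10 build. Their roles, versions and thresholds, and how the 8 libraries entered the calls, are not given in the sources used here. The authors deposited 1 list per genotype, with the start and end of each peak and a whole-number score of unstated scale, from 53 to 6678 in Col-0 and from 53 to 5806 in *ndx1-4*. Scores were therefore ranked within a list. Depth is unknown, so no interval was computed.

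Gene models were those of RefSeq for TAIR10.1, which shares the nuclear coordinates of TAIR10. In each list 2 peaks ended exactly at a chromosome end and 0 past it. A peak was counted for a gene if it shared at least 1 base with the body or 500 bases on either side, and for each gene it touched. All 46 genes were named, and every peak at them described. The genes and lists were chosen with earlier results of these data known. The coding-region count and the split by repeated 31-base words were added after seeing the counts. Ribosomal protein genes were those whose product name holds these words. Overlap code was tested on simulated peaks. Python 3.11.15, numpy 2.4.6 and matplotlib 3.10.9 were used.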

Additional observations from a re-analysis of the deposited data

Results flagged for a closer look

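Peaks on the chloroplast genome were not part of the counts above. The Col-0 list held 18 of them and the *ndx1-4* list 17, and they are given here because the plastid encodes the partners of the nuclear subunits. Of these, 5 in Col-0 touched a plastid photosynthesis gene (*psbZ*, *psaJ*, *psbT*, *petB* and *ndhF*, among 44 such genes), and 4 in *ndx1-4* (the same genes without *psaJ*). The other chloroplast peaks touched none of the 44. The share of all plastid genes touched by a peak was not computed, so these counts cannot be called high or low. The *psaJ* difference is one of a peak edge, since the *ndx1-4* list held a peak of 260 bases within the 320-base Col-0 peak. With 1 list per genotype, single libraries were not compared.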

How the results depend on the processing

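The share of photosynthesis genes with a peak minus that of all protein-coding genes was negative under all 10 alternatives, from -23.1 to -7.84 percentage points, with -18.1 for Col-0 and -16.4 for *ndx1-4* as reported. Of 59 recomputed values, 19 were scored as moved and 0 as reversed. A count cannot change sign, so a reversal was possible only for the share differences and the median distances. The median distance of peak centres from the gene start, 1289 bases in Col-0 and 1279 in *ndx1-4*, became 818 and 1049 with the gene body only, 1515 in Col-0 with flanks of 1000 bases, 2016 and 1996 with peaks of at least 500 bases, and 2016 and 1634 with the higher-scoring 50%, the last 2 settings resting on 1 or 2 peaks. The 3 counts of 9 genes, given in the order Col-0, *ndx1-4* and shared, became 5, 4 and 4 with the gene body only, and 4, 5 and 4 with peaks of at least 300 bases. With peaks of at least 500 bases they became 1, 1 and 1 (*LHCA2*), and with only the 50% of peaks that scored higher 1, 2 and 1 (*LHCA2*, with *PSAH2* in *ndx1-4*). Counting each peak only for the gene body nearest to its centre gave 4, 5 and 4. Peaks longer in Col-0 went from 5 to 3 and those longer in *ndx1-4* from 3 to 1 with the gene body only, and to 1 and 0 with the higher-scoring 50%. Fewer peaks or fewer bases enter each of these counts by construction. No paired analysis was possible because the single list deposited for a genotype carries no replicate number, and leaving out a replicate could not be run for the same reason. Without read depth, a gene with no peak cannot be told apart from one whose signal fell under the threshold of the peak caller.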
